A study of Zea mays with 18 samples.

Results

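The miR169 family of maize was followed through its guide strands, with zma-miR169a, zma-miR169c and zma-miR169r in most detail. A guide strand is the arm of each precursor hairpin that is loaded to silence targets. Guide strands were taken as every row of the miRNA tables whose name starts with zma-miR169 and carries no star. At sufficient phosphate 16 such rows were listed among 246, and since miR169m, miR169n and miR169q had the same value in every library they form 14 distinct entries among 197. At low phosphate 12 rows were listed among 207, all distinct, out of 156 distinct entries. The 12 names at low phosphate were all listed at sufficient phosphate as well. In the RefSeq gene table of the assembly Zm-B73-REFERENCE-NAM-5.0, 16 of the 16 listed names had a MIR169 gene, and 2 of the 18 genes there, MIR169d and MIR169e, had no guide strand entry.

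In plants, miR169 pairs with messenger RNAs of NF-YA, the subunit of the NF-Y complex that recognises the CCAAT box of promoters, and directs their cleavage. NF-YA acts together with the subunits NF-YB and NF-YC. In Arabidopsis the miR169 and NF-YA pair is known from drought and from nitrogen and phosphate supply. Here small RNA alone was measured, so NF-YA transcripts were not analysed.

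Libraries of small RNA were made from the leaves and the roots of Q319 seedlings, a maize inbred line raised hydroponically, with 15 to 20 plants behind each biological repeat. At sufficient phosphate (SP, 1000 µM KH2PO4) each organ had 2 libraries on day 0, at the 3-leaf stage, and 2 on day 8, at the 4-leaf stage. At low phosphate (LP, 5 µM KH2PO4) there was 1 library per organ for days 0, 1, 2, 4 and 8, where day 0 marks the start of the treatment and the last day is the 4-leaf stage, so days at low phosphate and growth of the seedling cannot be told apart within these libraries. For both SP root libraries of day 8, another label says day 0; their titles and stage label were followed, and every SP root result on day 8 rests on that. The listed counts of an SP library summed to between 8528196 and 14285855, and the LP libraries held 12885000 to 21385000 clean reads, as recovered from the steps of their low values. SP values are given below as counts per 1000000 (CPM) after TMM scaling and LP values as reads per 1000000 clean reads (RPM), and the tables were tested apart because they were normalised differently. Of the miR399 and miR827 entries, the best known phosphate starvation miRNAs, 3 of 11 rose with days at low phosphate in leaf and 4 of 11 in root (limma), beside 5 and 4 of the 151 entries tested. Without the day 8 library of the organ, or in root with a pseudocount of 4, 0 entries were called.

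The guide strands fell into a few sets of near-equal entries. In the 18 libraries miR169c had 97.7 to 100.4 reads for every 100 of miR169r. The entries miR169i and miR169k differed by at most 1 read in any SP library and 4 in any LP library, and miR169f and miR169h by at most 1 and 2 reads. The entry miR169j followed miR169i, with 88.8 to 96.2 reads of miR169i for every 100 of miR169j at SP and 89.4 to 107 at LP. The entry miR169g was less close to miR169f. For every 100 reads of miR169g there were 87.0 to 92.9 of miR169f at SP and 42.9 to 92.0 at LP. The lowest was in leaf on day 8, with 6 reads against 14. Entries of a set may count the same reads, so they are uncertain as separate values and are not independent of each other. By contrast miR169a and miR169b differed, with 107 to 339 reads of miR169a for every 100 of miR169b.

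In level, miR169c and miR169r led in both organs. In SP leaf miR169c ranged from 64.7 to 87.8 CPM with a median of 82.2 CPM, ahead of miR169a with a median of 35.5 CPM and a highest value of 46.6 CPM. The next entries in SP leaf, miR169b (median 19.1 CPM), miR169j, miR169k (17.2 CPM), miR169i (17.1 CPM), miR169g (13.7 CPM), miR169h (12.4 CPM) and miR169f (12.3 CPM), overlapped from each neighbour to the next. The rare entries miR169p (1.17 CPM), miR169l (0.861 CPM) and miR169m (0.616 CPM) stood below them without overlap. In SP root miR169c had a median of 143 CPM, and every other entry outside the miR169c and miR169r pair stayed at or under 17.3 CPM. There miR169a was seventh in order, with a median of 11.2 CPM, and overlapped its neighbours miR169g and miR169h. The rarest entry, miR169o, had 3 counts in 1 root library and 0 in the other 7 SP libraries, and was the only member that failed the filter on low counts. Capture of a small RNA depends on its sequence, so levels of different members compare less surely than levels of the same member.

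**Figure D1:**
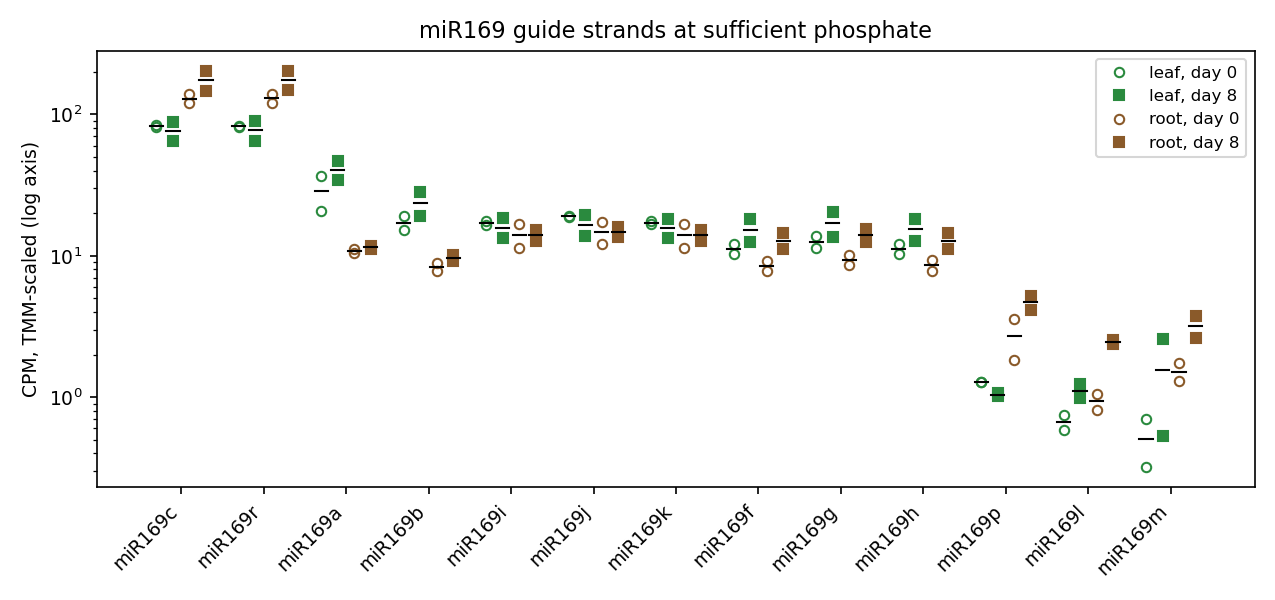
CPM after TMM scaling (log axis) of the 13 tested guide strands in the 8 SP libraries, 1 point a library, green for leaf, brown for root, open circles for day 0, filled squares for day 8, and a black bar for each mean of 2. The miR169a points of leaf lie between 20.7 and 46.6 CPM, above the root points at 10.4 to 11.8 CPM, while miR169c is lower in leaf, at 64.7 to 87.8 CPM, than in root, at 119.9 to 203 CPM.

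Between the organs some members of the family differed, in both directions. The members miR169a and miR169b were higher in leaf, while miR169c, miR169r and miR169p were lower in leaf than in root. On day 0, miR169a had 36.5 and 20.7 CPM in leaf and 10.4 and 11.1 CPM in root. On day 8 its values were 34.5 and 46.6 CPM in leaf and 11.2 and 11.8 CPM in root. Both leaf libraries were above both root libraries at each stage. The log2 difference was 1.41 ± 0.30 (SE, edgeR quasi-likelihood test, adjusted p = 0.00117), or 2.65-fold, at the younger stage. At the older stage it was 1.82 ± 0.30 (edgeR adjusted p = 0.000194), or 3.52-fold. Scaled to the listed reads alone, without TMM factors, these log2 differences were smaller, 0.65 and 1.22, and still passed (edgeR adjusted p = 0.0358 and 0.000489).

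The entry miR169c had 83.6 and 80.9 CPM in leaf and 138.6 and 119.9 CPM in root on day 0. On day 8 it had 64.7 and 87.8 CPM in leaf and 146.9 and 203 CPM in root. Again the organs did not overlap, but in the opposite order. Leaf differed from root by a log2 value of -0.65 ± 0.26 at the younger stage (edgeR adjusted p = 0.0382) and of -1.20 ± 0.26 at the older one (edgeR adjusted p = 0.00142). Its near copy miR169r gave -0.66 and -1.19, with edgeR adjusted p = 0.0376 and 0.00156. Scaled to the listed reads alone, the log2 differences of miR169c were larger, -1.42 and -1.79.

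Among the less abundant members, miR169b was higher in leaf at both stages, 2.06-fold (edgeR adjusted p = 0.00427) and 2.47-fold (edgeR adjusted p = 0.000866), with 143 to 251 counts in the leaf libraries and 91 to 104 in the root libraries. The rare miR169p had 11 and 12 counts in leaf and 44 and 19 in root on day 0, then 12 and 9 in leaf and 47 and 47 in root on day 8. Its log2 difference of leaf from root was -1.09 on day 0 and -2.14 on day 8 (edgeR adjusted p = 0.0318 and 0.000497). The member miR169l, with 5 to 27 counts a library, was lower in leaf on day 8, by -1.15 on the log2 scale (edgeR adjusted p = 0.0107). The sets around miR169f and miR169i did not pass, and neither did miR169m (edgeR adjusted p = 0.0703 on day 0 and 0.0931 on day 8). However, miR169m was called lower in leaf at both stages by DESeq2 and when scaled to the listed reads alone. With replicate as a block it was called on day 0 but not on day 8. The log2 differences of both sets were 0.17 to 0.43 over both stages, but -0.48 to -0.33 when scaled to the listed reads alone, so they have no settled direction.

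In all, 2 of 13 guide strands were higher in leaf and 3 lower on day 0, where of the 149 entries tested 43.6% were higher and 36.2% lower, 79.9% together. On day 8, 2 were higher and 4 lower, where 38.9% of all entries were higher and 36.9% lower, 75.8% together. Their median log2 difference was 0.29 on day 0 and 0.17 on day 8, beside 0.36 and 0.26 over all entries. With either leaf library of day 0 left out, miR169c, miR169r and miR169p no longer passed on day 0 (edgeR adjusted p = 0.0979 to 0.136), without the first root library of day 0 miR169p did not (0.198), without the first leaf library of day 8 miR169l did not pass on day 8 (0.0682), and scaled to the listed reads alone miR169b was 0.28 on the log2 scale on day 0 (edgeR adjusted p = 0.256). In these bulk samples, fewer cells of a type and less of the miRNA per cell cannot be told apart.

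At low phosphate miR169a was again higher in leaf, and miR169c and miR169r were lower. The entry miR169p was blank in leaf, so its lower value there came from filled cells. The log2 difference of miR169b was 0.09 (limma adjusted p = 0.711), which did not pass. Over days 0, 1, 2, 4 and 8, miR169a had 28.1, 18.5, 16.6, 12.5 and 11.6 RPM in leaf. Its root values were 7.92, 8.32, 6.93, 7.49 and 11.2 RPM. Leaf stayed above root on every day, though the leaf value of day 8 exceeded the root value of that day only slightly. The mean log2 difference was 0.93 ± 0.24 (SE, limma on log2(RPM + 1), adjusted p = 0.00548). This organ test took the single libraries of the days as replicates of an organ, with no term for day and no pairing by day. Its SE thus also holds the change over days.

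The entry miR169c had 53.6, 66.5, 55.5, 73.3 and 41.4 RPM in leaf. In root it had 109, 104, 113, 95.3 and 68.4 RPM. Root was above leaf on every day, and the highest leaf value, on day 4, was above the lowest root value, on day 8. The log2 difference was -0.75 ± 0.21 (limma adjusted p = 0.00849), and miR169r gave -0.75 as well (limma adjusted p = 0.00849). With TMM factors computed on the values, which raised the median of all entries from 0.01 to 0.58, miR169c and miR169r turned to 0.22 each (limma adjusted p = 0.413 and 0.411), so their direction at low phosphate depends on the scaling. With the same factors miR169b was higher in leaf, by 0.95 on the log2 scale (limma adjusted p = 0.00708), and miR169a by 1.82 (limma adjusted p = 0.000247). Then 2 members were called higher and 1 lower, the latter being miR169p with its filled leaf values.

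The member miR169p was blank in all 5 LP leaf libraries and had 1.29, 1.96, 2.25, 1.77 and 1.62 RPM in root. With blanks set to 0.5 RPM its log2 difference was -0.88 (limma adjusted p = 0.000123). The size rests on that setting, from -0.46 to -1.46 with blanks set to 1 or 0. All 5 leaf values in this test were the same filled number, and each fill used lay below every root value. The direction was thus fixed by the fill, and the p-value measures no scatter in leaf. The LP values of miR169l were blank in 3 of the 5 leaf libraries and were filled in the same way. In total 1 of 12 guide strands was higher in leaf and 3 lower, with miR169p among the 3 through filled leaf values. Of the 151 entries tested 33.1% were higher and 34.4% lower, 67.5% together. The median log2 difference was -0.39 over the members and 0.01 over all entries.

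Ratios between members of the same library do not depend on how libraries were scaled. In SP leaf, miR169a had 25.6 to 53.2 reads for every 100 of miR169c. In SP root it had 5.80 to 9.29. The LP leaf libraries gave 17.1 to 52.4, and the LP root libraries 6.15 to 16.4. The organs did not overlap in either table, and the mean ratio was higher in leaf, by 2.50 on the log2 scale at SP (exact two-sided permutation test, 4 against 4 libraries, p = 0.0286, the smallest this design allows, 0.0381 after adjustment over 8 tests) and higher at LP, by 1.77 on the log2 scale (exact permutation test, 5 against 5, p = 0.00794, again the smallest possible, 0.0317 adjusted). These libraries span both SP stages or all 5 LP days, and the 4 ratios were chosen with the organ differences known.

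Within the miR169a and miR169b pair the balance also differed. For every 100 reads of miR169a there were 52.2 to 73.3 of miR169b in SP leaf and 75.0 to 85.8 in SP root. The LP leaf libraries had 29.5 to 59.0 and the LP root libraries 77.5 to 93.6. Leaf was below root without overlap in both tables (exact permutation test, adjusted p = 0.0381 and 0.0317). For miR169i per 100 of miR169c, leaf had 19.9 to 21.8 and root 7.49 to 12.03 at SP (exact permutation test, adjusted p = 0.0381), while at LP 8.14 to 17.6 in leaf overlapped 7.47 to 11.5 in root (adjusted p = 0.109, exact permutation test).

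**Figure D2:**
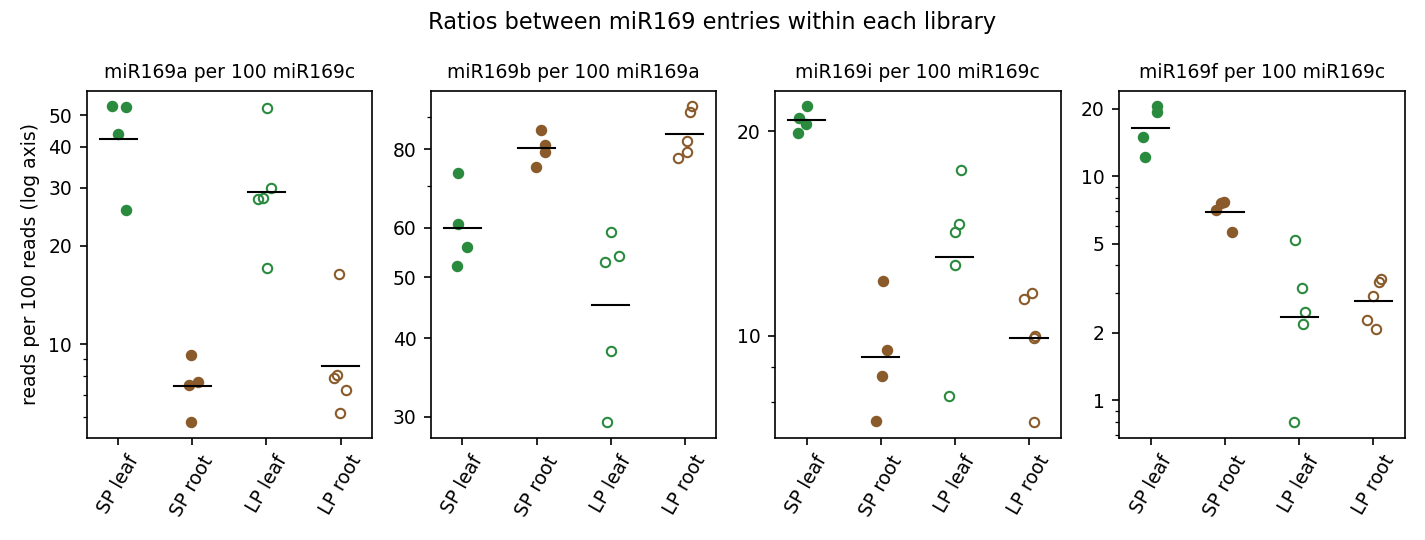
Reads of 1 guide strand for every 100 of another in the same library (log axis), 1 point a library, filled for SP and open for LP, green for leaf and brown for root, with a black bar for each geometric mean. The miR169a to miR169c ratio lies at 17.1 to 53.2 in leaf and at 5.80 to 16.4 in root over both tables.

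The set of miR169f stood apart between the tables. For every 100 reads of miR169c there were 12.2 to 20.6 of miR169f in SP leaf and 5.63 to 7.69 in SP root. The LP libraries had 0.801 to 5.19 (leaf) and 2.07 to 3.46 (root). On day 0 alone, before any time at low phosphate, the SP leaf libraries had 12.2 and 15.0 and the LP leaf library 3.18. Leaf was above root without overlap at SP (exact permutation test, adjusted p = 0.0381), and the organs overlapped at LP (exact permutation test, adjusted p = 0.698). The tables thus differ within the family at matched day and organ, and what part of this comes from how each table was made was not tested.

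Growth from the 3-leaf to the 4-leaf stage at SP moved no guide strand past the threshold. In leaf 0 of 13 were called (edgeR), where 10.1% of all entries were, and 0 of 13 had an unadjusted p under 0.05, beside 25 of 149 entries. In leaf miR169a changed by 0.50 ± 0.29 on the log2 scale (edgeR adjusted p = 0.498) and miR169c by -0.11 ± 0.26 (edgeR adjusted p = 0.865). The libraries of the stages overlapped in both cases. DESeq2 called 0 members. In root 0 of 13 were called by edgeR, where 0% of all entries were, and 1 of 13 and 22 of 149 had an unadjusted p under 0.05; DESeq2 called 0 members and 8 entries. That member was miR169l, with 10 and 11 counts at the 3-leaf stage, 27 and 23 at the 4-leaf stage, and a log2 change of 1.39 ± 0.36 (edgeR adjusted p = 0.0603). In root miR169a changed by 0.09 ± 0.31 (edgeR adjusted p = 0.917) and miR169c by 0.44 ± 0.26 (edgeR adjusted p = 0.466), with the day 8 libraries of both entries above those of day 0. The stage change did not differ between leaf and root past the threshold for any of 13 members (edgeR adjusted p from 0.482 up), where 6.04% of all entries passed.

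With days at low phosphate, each later leaf library had a lower miR169a RPM than the one before, from 28.1 RPM on day 0 to 11.6 RPM on day 8. This order did not hold in the ratio to miR169c. For every 100 reads of miR169c, leaf had 52.4, 27.8, 29.9, 17.1 and 28.0 of miR169a on days 0, 1, 2, 4 and 8. The slope of miR169a RPM was -0.39 ± 0.11 on the log2 scale for each doubling of day + 1 and just missed the threshold (limma adjusted p = 0.0601). It passed with a pseudocount of 4 (limma adjusted p = 0.0458), with blanks set to 1 (0.0489) or without the root library of day 8 (0.0359), and over all the alternatives ranged from 0.0359 to 0.274. At SP, leaf miR169a stood at 28.6 ± 11.2 CPM on day 0 and 40.5 ± 8.61 CPM on day 8 (SD, n = 2). The courses at SP and LP were not tested against each other.

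In root, miR169a lay between 6.93 and 8.32 RPM up to day 4 and at 11.2 RPM on day 8, with a slope of 0.10 ± 0.11 (limma adjusted p = 0.770). The slopes of miR169a in leaf and root differed by -0.49 ± 0.15, with an unadjusted p of 0.00874 (limma), which did not hold after adjustment (limma adjusted p = 0.576). For miR169c the slope was -0.07 ± 0.13 in leaf and -0.19 ± 0.13 in root (limma adjusted p = 0.835 and 0.661). In leaf 0 of 12 members were called, where 5.30% of entries were, and 1 had an unadjusted p under 0.05, beside 34 of 151 entries; the leaf slope of miR169p comes from filled blanks alone and says nothing of its level. In root 0 of 12 were called, where 5.30% of entries were, and 0 had an unadjusted p under 0.05, beside 27 of 151 entries. No slope difference was called by limma among the 12 members or among all entries (0%, with 1 and 9 at an unadjusted p under 0.05).

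**Figure D3:**
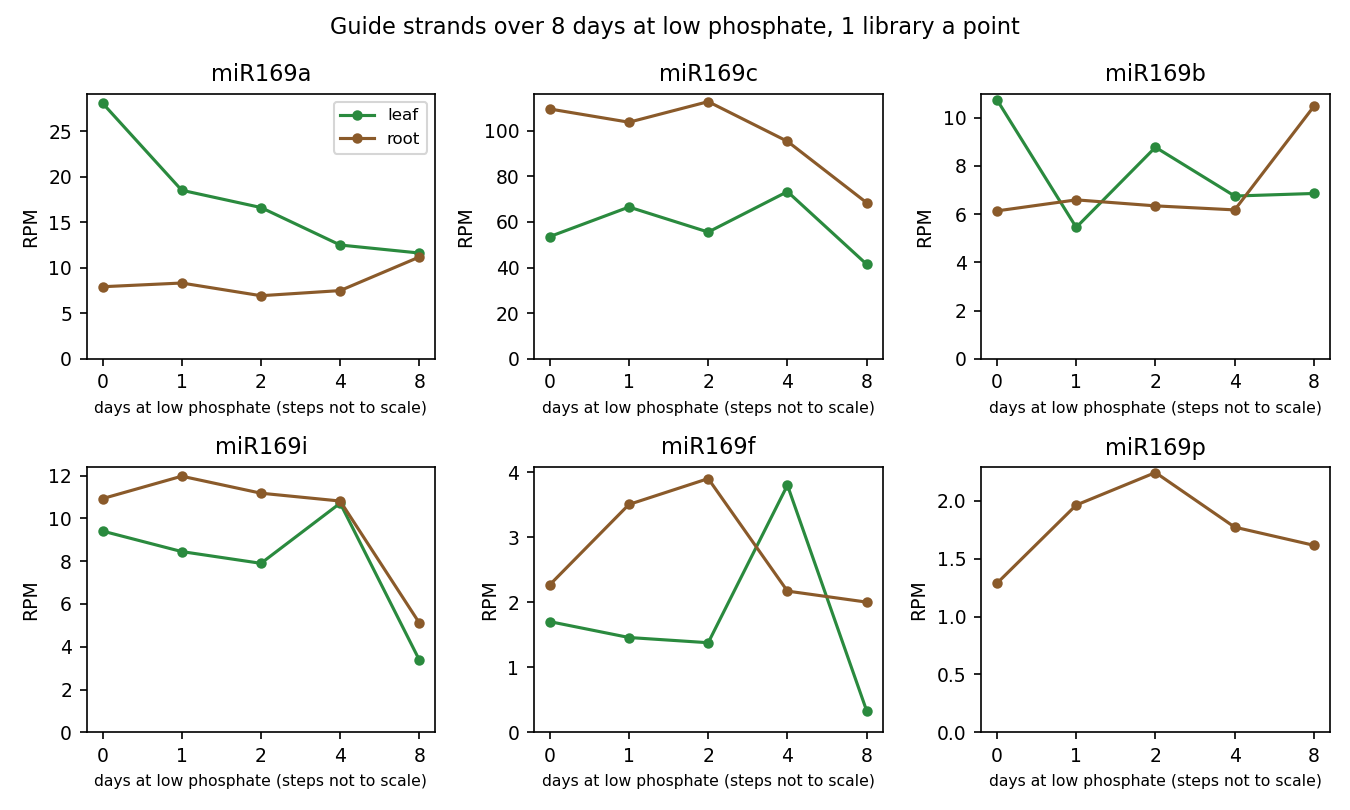
RPM of 6 guide strands, 1 from each set plus miR169b and miR169p, on days 0, 1, 2, 4 and 8 at low phosphate, green for leaf and brown for root, 1 library a point and no replicate. Leaf miR169a goes from 28.1 to 11.6 RPM, miR169i is at its lowest on day 8 in both organs, and miR169p has no leaf value.

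Single days of the LP course can be read against day 0 only as single libraries, with intervals that cover counting error alone. All comparisons of an organ share its day 0 library. In leaf on day 8, miR169a had 0.414 of its day 0 value (exact 95% counting interval 0.348 to 0.491). On the same day miR169c had 0.774 of it (0.698 to 0.858). In root on day 8, miR169a had 1.41 times its day 0 value (1.12 to 1.79) and miR169b 1.71 times (1.32 to 2.21), while miR169c had 0.625 of it (0.578 to 0.675). On that day the members of the root thus lay on both sides of day 0.

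The set of miR169i, miR169j and miR169k was lowest on day 8 in both organs. In leaf, miR169i had 9.41, 8.45, 7.90, 10.7 and 3.37 RPM over the 5 days, and in root 10.9, 11.97, 11.2, 10.8 and 5.11 RPM. Its day 8 value was 0.359 of day 0 in leaf (exact 95% counting interval 0.26 to 0.49) and 0.468 in root (0.354 to 0.613). Up to day 4 it kept within 0.84 and 1.14 times its day 0 value in both organs. At SP the same entry had 17.1 ± 0.701 CPM in leaf on day 0 and 15.8 ± 3.64 CPM on day 8 (SD, n = 2).

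In leaf the set of miR169f, miR169g and miR169h was highest on day 4 and lowest on day 8. The leaf values of miR169f were 1.70, 1.46, 1.38, 3.80 and 0.332 RPM, which are 23, 19, 22, 49 and 6 reads. In root they were 2.27, 3.51, 3.90, 2.17 and 2.00 RPM. The day 4 library of leaf had 2.23 times the day 0 value (exact 95% counting interval 1.33 to 3.84), and the day 8 library 0.195 of it (0.0649 to 0.492). The member miR169l, at 0.593 RPM on day 0 and 2.25 RPM on day 4, was high in the same leaf library.

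The authors' deposited table carries a mark of significance for each day against day 0. It marks no guide strand on days 1 and 2 in either organ, where 18.9% and 7.2% of the entries tested were marked in leaf and 11.9% and 8.59% in root. On day 4 in leaf it marks 4 of 11 members as higher (miR169f, miR169g, miR169h and miR169l) and miR169a as lower, where 23.7% of entries were marked higher and 8.15% lower. On day 8 in leaf the authors' deposited table marks 7 of 10 members as lower and 0 as higher, where 25.4% of entries were marked lower and 20.9% higher. Those 7 were miR169a and the sets of miR169f and miR169i, with log2 values in the authors' deposited table from -1.27 to -2.36. In root it marks 0 of 12 members on day 4, where 22.4% of entries were marked, and on day 8 it marks miR169i, miR169j and miR169k as lower, 3 of 12 members, where 14.6% of entries were marked lower and 21.2% higher. The marks compare single libraries, and near-equal members are marked together.

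How far the guide dominates over the opposite arm of its hairpin, the star strand, differed between members. Star entries can be near-equal too: on day 8 at LP, miR169a* and miR169b* had 116 reads each in root, and 279 and 270 in leaf. Entries this close may count the same reads. The shares below thus compare entries by name and cannot be assigned surely to single hairpins. For miR169c the guide made up 82.4% to 98.4% of the reads of both arms over the SP libraries and 88.6% to 99.5% over the LP libraries. For miR169a the arms were closer, with a guide share of 48.5% to 62.7% in SP leaf and 59.6% to 72.7% in SP root. At LP its share in leaf was 60.4% on day 0 and 42.9% on day 8, with 279 star reads against 210 guide reads on the last day. For miR169b the star had more reads than the guide in all 4 SP leaf and all 5 LP leaf libraries, where the guide share was 26.9% to 47.7%. In root its guide had more reads than the star in every library, with a share of 50.6% to 66.7%. The arms were close at LP on days 0, 1 and 2, with 100, 141 and 130 guide reads against 95, 133 and 127 star reads. In these libraries the 95% counting interval (Wilson) of the share included equal arms. It also did in the second SP root library of day 8 (91 against 70 reads). The same held for the first SP leaf library of day 0 and the second of day 8.

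The miR169i entries had more star than guide reads in all 4 SP root libraries, where the guide share was 17.1% to 25.3%. So had the near-equal miR169k entries, at 17.02% to 24.97%. In SP leaf the guide share of miR169i was 39.9% to 62.2%. At LP the share in leaf was 79.7% to 81.5% up to day 2, then 34.4% on day 4 and 45.2% on day 8. In LP root it went from 67.2% on day 0 to 21.7% on day 8. On day 0, then, the guide was the minor arm in the SP root libraries and the major arm in the LP root library; what part of this comes from how each table was made was not tested. At SP 4 of 9 star strands were lower in leaf on day 8 than on day 0 (edgeR), where 15 of 149 entries were. Without the second leaf library of day 0, 0 entries were called, these 4 included.

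**Figure D4:**
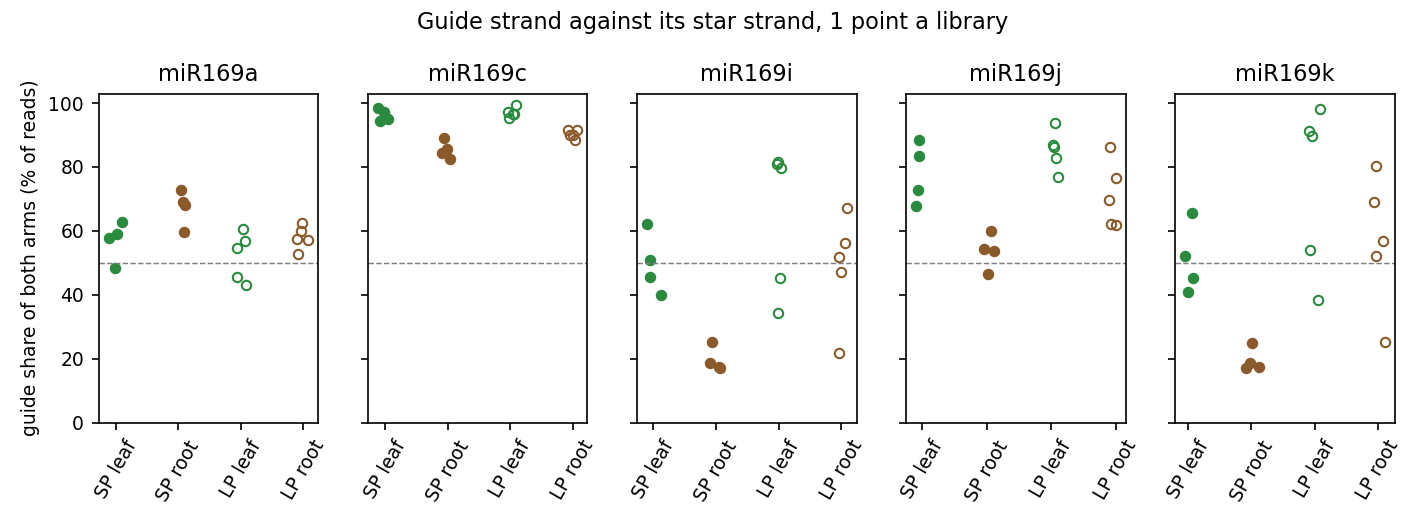
Guide reads as a percentage of the reads of the guide and star entries of the same name, 1 point a library, filled for SP and open for LP, green for leaf and brown for root, with a dashed line where both arms are equal. Near-equal entries may count the same reads. The share of miR169c stays above 82%, that of miR169a is 42.9% to 72.7%, and that of miR169i goes from 17.1% to 81.5%.

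The entries outside the family whose LP profile was most like that of a member were sought among 130 entries by the mean absolute difference of centred log2(RPM + 1) values over the 10 libraries. For miR169a they were miR164e, at 0.18, then miR156f* and miR156d*, each at 0.24, beside a median of 0.95 over the entries. For miR169c they were miR156i* at 0.20, miR159c at 0.27 and miR156a* at 0.28, all of which stayed under 3 RPM. The first 2 were also nearest to miR169r, followed by miR168a at 0.27. The lowest value of miR156i*, miR159c and miR156a* was 0.5 RPM, the value set for blanks. Their likeness thus rests in part on filled values. These are descriptions of 10 libraries that share organ and day.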

How the data were processed

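Leaf and root small RNA of maize was sequenced in 18 libraries. Per the labels' protocols, HiSeq tags were cleaned and annotated to known miRNAs; the aligner and the miRBase and genome versions behind the tables were not given in the sources used here. As for sufficient phosphate (8 libraries), the authors deposited whole numbers, read here as a count per entry, although a suffix in the headers (std) is unexplained. Reads that match several entries may be counted for each. For the 10 low-phosphate libraries the deposited signal is reads per 1000000 clean reads (RPM), a normalisation that the design text of the series states. Depth was recovered from the steps of low values, which were whole within 0.03 reads for 100% of them. The authors' deposited log2 folds and marks compare single libraries; the rule behind the marks is not stated, and every marked fold was at least 2. 

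Rows of a family with identical values were counted once. The count tests used edgeR 4.0.16 under R 4.3.3 (TMM scaling, robust quasi-likelihood, at least 10 counts in at least 2 libraries, 149 entries, all 8 libraries, 4 residual degrees of freedom). The SE beside an edgeR value is the absolute log2 value divided by the square root of F. RPM values were tested with limma 3.58.1 (trend, robust) on log2(RPM + 1), with blanks set to 0.5 and at least 1 RPM in at least 2 libraries (151 entries); this scale understates changes of rare entries. Slopes are on log2(day + 1), and day 0 to 8 has 1 library a point. The LP comparison of leaf against root has an organ term alone, so the days serve as its replicates. P-values are Benjamini-Hochberg adjusted over all entries of a contrast, with a threshold of 0.05. Ratios were tested by exact permutation (scipy 1.17.1). Counting intervals are at 95% and cover counting error only. Both fits were run on simulated data with a log2 change of 2 at SP and a slope of 1 at LP, where rare LP entries were raised in level. These runs do not cover effects as small as most of those given here.

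Named were all miR169 guide strands, with miR169a, miR169c and miR169r in full, star strands by counts, and the 3 nearest LP profiles of each of these. Members and lists were chosen with earlier results of these data known. Alternatives covered scaling, filters, DESeq2 1.42.0, blanks, pseudocounts, time scale, identical rows and a replicate block. They also covered SP fits of only the groups of a contrast, and leaving out each library. SP replicates differed beyond counting noise (chi-square per degree of freedom 126 to 1311), so none were merged, and p-values of the SP fits measure the spread between pools of plants. The LP fits have no replicate of a day. Their p-values measure the scatter of single libraries around a line over days, or across the days of an organ. Ratio tests take both SP stages or all LP days together.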

Additional observations from a re-analysis of the deposited data

Results flagged for a closer look

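Both patterns here were picked because all libraries of leaf moved one way and all libraries of root the other. They were sought among the guide strands alone, and how often other entries show such a pattern was not counted. At sufficient phosphate miR169p was lower on day 8 than on day 0 in leaf, with a log2 value of -0.29 and both day 8 libraries below both day 0 libraries, and higher in root, at 0.76. The difference of the stage changes was -1.05 ± 0.61 on the log2 scale and did not pass (edgeR adjusted p = 0.482), and the leaf values rest on 9 to 12 counts a library.

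At low phosphate miR169b was below its day 0 value in all 4 later leaf libraries, by log2 values of -0.98 to -0.29, and above it in all 4 later root libraries, by 0.0097 to 0.77. The libraries of an organ share 1 day 0 library. The slopes differed by -0.30 ± 0.19 and did not pass (limma adjusted p = 0.912).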

How the results depend on the processing

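In the SP organ comparisons 5 guide strands were called on day 0 and 6 on day 8. Settings other than leaving out 1 library gave 6 on day 0 and 6 or 7 on day 8. Among these settings was a fit of only the groups of the contrast. In most of them miR169m joined the calls. Leaving out 1 library, which left 1 library in its group, also moved some calls, as described for the organ comparisons above. In SP root growth the count became 1 (miR169l) under median-ratio (RLE) scaling and when scaled to listed reads, and 0 to 1 with 1 library left out. In SP leaf growth it was 0 to 1 (miR169m) with 1 library left out. For the LP leaf trend it became 1 with a pseudocount of 4, with blanks set to 1 (both miR169a) and with day in place of log2(day + 1) (miR169j), and 0 to 1 with 1 library left out. LP leaf against root gave 3 or 4 members under other settings and 4 to 8 with 1 library left out. The 8 came without the leaf library of day 4. All these counts include miR169p, whose leaf values were filled. No member was called for the LP root trend or for either difference between organs under any setting run.

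Over all tested members and contrasts, 145 of 1748 values under an alternative had the opposite sign (the filled leaf slope of miR169p left out); 0 of these were called, and 2 of them, miR169c and miR169r in LP leaf against root, belong to calls. The largest was the SP stage difference of miR169m, -0.98 without the second leaf library of day 8 (0.48 with it). For miR169a, miR169c and miR169r the turned values were as follows. Scaled to listed reads, the leaf growth of miR169c and miR169r was 0.0076 and 0.027, and with 1 library left out it was -0.35 to 0.095 and -0.34 to 0.12, above 0 without the first leaf library of day 8. Root growth of miR169a was -0.047 to 0.095 with 1 library left out, below 0 without the first root library of day 0 or of day 8. With 1 library left out, the LP leaf slopes of miR169c and miR169r were -0.23 to 0.15 and -0.24 to 0.15, and the LP root slope of miR169a was -0.053 to 0.19, with the sign turned without the day 8 library of the organ. Slope differences of miR169c and miR169r were -0.041 to 0.34 and -0.047 to 0.34, below 0 without the leaf library of day 0 or the root library of day 8. With TMM factors, LP leaf against root was 0.22 for each. The cause was not tested. Of 514 values of miR169a, miR169c and miR169r in each contrast, and of other members where called, 487 kept direction and call.

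Over all entries, calls ranged over all alternatives from 0 to 21 for leaf growth (15), 0 to 19 for root growth (0), 0 to 20 for their difference (9), 0 to 25 for the LP leaf trend (8) and 0 to 24 for the LP root trend (8). The split of higher against lower calls moved with scaling: 65 and 54 in SP leaf against root on day 0 became 41 and 69 scaled to listed reads (median log2 from 0.36 to -0.41), and 50 and 52 at LP became 65 and 25 with TMM factors. Deviations of same-numbered libraries correlated at -0.13 to 0.20 between groups, highest between leaf and root of day 0. Such weak correlations cannot settle whether replicate numbers pair the samples, and the main fit used no pairing. With the replicate block, 6, 6, 0, 0 and 0 members were called on day 0, on day 8, in leaf growth, in root growth and in their difference, and 1 entry in all for the last. The planned count test on reads recovered from LP values was not run, since too few low values were left to check them. The LP read numbers and counting intervals given above use the same recovered reads and share this limit.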
